A study of Mus musculus with 10 samples.

Results

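The mouse genes for myosin heavy chains and unconventional myosins were taken as every gene whose symbol begins with Myo or Myh followed by a digit, which gave 39 of the 26264 genes in the N2A splicing table. They held 4108 of its 661162 splicing events and 14 of the 2469 segments in the authors' neuron table. RNA was sequenced from N2A cells, a mouse neuroblastoma line, 72 h after transfection with 40 nM of siRNAs to Qk (siQk, 3 samples) or of non-targeting siRNAs (siNT, 3 samples). It was also run on glutamatergic neurons derived in culture from mouse embryonic stem cells, which received cycloheximide (CHX, 2 samples), a translation inhibitor, at 100 uM for 12 h on day 7, or no drug (untreated, 2 samples). The labels give no genotype or strain beyond the cell type, and the replicates are labelled biological, so p-values measure the spread between those samples. Qk encodes Quaking, an RNA-binding protein that regulates splicing, and the knockdown asks which exons depend on it. CHX blocks translation and with it the decay of transcripts with early stop codons.

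Myosins are motors that move along actin filaments or pull them together. Each heavy chain has a motor domain that binds actin and ATP, a neck of IQ motifs that holds calmodulin or light chains, and a tail that sets whether the motor forms filaments or binds cargo. Class II heavy chains (Myh genes) build the contractile filaments of muscle and, as nonmuscle myosin II (Myh9, Myh10 and Myh14), drive contraction, adhesion and growth cone movement in other cells. The unconventional classes (Myo genes) carry organelles, tether membranes and regulate the actin cortex, and several of them differ between brain and other tissues through short alternative exons.

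Of the 36 myosin cassette exons that could be tested in N2A cells, 4 fell and 1 rose after the Qk knockdown, each in a different gene. The 4 exons described here are shown first because the results turn on them. Capitals mark the cassette exon, and lower case marks 15 nt of the flanking exons in a GENCODE M21 transcript on mm10. Sequences run 5′ to 3′ on the strand of the gene.
Myo9b 40 nt exon, chr8:71340760-71340799, plus strand: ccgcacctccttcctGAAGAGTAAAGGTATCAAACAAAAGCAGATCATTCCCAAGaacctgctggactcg
Myo18a 45 nt exon, chr11:77854678-77854722, plus strand: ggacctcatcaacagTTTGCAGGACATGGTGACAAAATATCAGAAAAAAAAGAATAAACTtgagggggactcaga
Myo5a 81 nt exon, chr9:75192384-75192464, plus strand: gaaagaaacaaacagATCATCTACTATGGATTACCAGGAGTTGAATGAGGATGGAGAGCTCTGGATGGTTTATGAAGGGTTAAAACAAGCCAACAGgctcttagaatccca
Myh10 30 nt exon, chr11:68745935-68745964, plus strand: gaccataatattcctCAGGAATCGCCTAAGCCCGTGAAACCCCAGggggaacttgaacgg

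These 4 lie wholly in coding sequence in GENCODE M21. The exons of Myo18a, Myo5a and Myh10 have lengths that are multiples of 3 and hold no stop codon in the annotated frame. The Myo9b exon does not keep the frame: it is exon 16 of 40 of Myo9b-201, and removing it shortens the coding length of that transcript to 2358 nt, against 5886 nt with the exon. The others are exon 40 of 42 of Myo18a-208, exon 31 of 41 of Myo5a-214 and exon 6 of 43 of Myh10-201. Among all 36 tested myosin exons, 22 had a length divisible by 3, against 42.7% of all tested exons.

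The N2A samples held 26595944 to 80481173 reads on exon events. Qk itself averaged 11.1 ± 2.60 CPM in siQk, that is, its exon-event reads scaled to the sample total, and 85.4 ± 4.70 CPM in siNT (SD, n = 3 each), so 13.1% was left. Percent spliced in (PSI) is the percentage of a gene's transcripts, judged from junction reads, that carry an exon, keep an intron or use a splice site. Testing required 10 or more informative reads per sample and a mean PSI from 2 to 98. Of the 4108 myosin events 1274 had no read at all, 1419 had enough reads, 693 of those lay below a PSI of 2, 626 lay above 98, and 100 were tested. The 100 comprised 36 cassette exons, 38 introns, and 20 and 6 splice sites that compete at the 3′ and 5′ end of an intron. Of the 39 genes 16 had an event with enough reads and 23 had none. In bulk RNA of this kind, fewer cells with a transcript and less of it per cell cannot be told apart.

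A call needed an adjusted p under 0.05 and mean PSI values 10 or more points apart, with limma run on log2 inclusion over exclusion reads and p-values adjusted over every tested event of the class. Among all 12930 tested cassette exons this rule called 1.18%, 0.75% upward and 0.425% downward. Among the 36 myosin exons it called 5. An unadjusted p under 0.05 was found for 10 of the 36, against 9.04% of all tested exons, and the samples of the groups did not overlap for 12 of the 36, against 14.6%. The median absolute difference was 2.93 points for the myosin exons and 1.82 points for all tested exons, and the median signed difference was -0.11 points for the myosin exons and 0.04 points for all. The 4 calls described here were 1 of 12 tested exons in class IX, 1 of 5 in class XVIII, 1 of 2 in class V and 1 of 1 in nonmuscle myosin II. No call was made among 5 exons of class XIX, 4 of class X, 3 of class VI and 1 each of class VII and the muscle heavy chains.

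Myo9b encodes a single-headed class IX myosin whose tail carries a GTPase-activating domain. Its 40 nt exon was included at 71.22%, 52.49% and 42.62% in the siQk samples, against 90.89%, 90.24% and 90.87% in the siNT samples. The siNT samples lay within 1 point of each other while the siQk samples were spread widely below them, and the groups did not overlap. The difference of mean PSI was -35.2 points (limma, adjusted p = 0.00822). Reads supporting skipping numbered 12, 12 and 57 in siQk and 14, 7 and 15 in siNT, beside 26, 13 and 45 reads over the upstream inclusion junction in siQk and 96, 51 and 142 in siNT. Without siNT replicate 2 the adjusted p was 0.0520, with PSI in percent it was 0.114, and over all alternatives it ran from 8.36e-07 to 0.114.

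Myo18a encodes a class XVIII myosin that binds actin and membranes of the Golgi and is not thought to work as a fast motor. Its 45 nt exon lies near the end of the coding sequence, in the part that encodes the tail. Inclusion was 8.09%, 9.15% and 8.18% in siQk, against 43.32%, 40.61% and 39.50% in siNT. Every siQk sample was lower than every siNT sample, with an SD of 0.59 points in siQk and 1.97 points in siNT. The difference was -32.7 points (limma, adjusted p = 0.000446), and it was called under each of the 14 alternatives run.

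Myo5a encodes the class V motor that carries pigment granules, endoplasmic reticulum and other cargo along actin in neurons and melanocytes, and alternative exons of its tail are known to select cargo adaptors. The 81 nt exon was included at 14.26%, 11.81% and 13.29% in siQk, against 47.53%, 31.97% and 32.50% in siNT. Replicate 1 stood above the other siNT samples, and all 3 siQk samples lay below the lowest of them. Skipping was supported by 362, 270 and 701 reads in siQk and by 273, 197 and 440 in siNT. The mean PSI differed by -24.2 points (limma, adjusted p = 0.00454). With the test run on PSI in percent the adjusted p was 0.0882, and over all alternatives it ran from 1.28e-12 to 0.0882.

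Myh10 encodes the heavy chain of nonmuscle myosin IIB, the form most abundant in brain. Its 30 nt exon is the short insert near the ATP-binding region of the motor, in the surface loop known as loop 1, which is used mainly in neurons. Inclusion was 13.51%, 13.77% and 14.68% in siQk, against 3.74%, 4.23% and 2.84% in siNT. It was the called myosin exon that rose, with an SD of 0.61 points in siQk and 0.71 points in siNT. The upstream inclusion junction had 26, 22 and 69 reads in siQk and 12, 10 and 9 reads in siNT, beside 224, 181 and 544 skipping reads in siQk and 509, 293 and 626 in siNT. The difference was 10.4 points (limma, adjusted p = 0.00499), just past the size limit of 10 points.

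**Figure D1:**
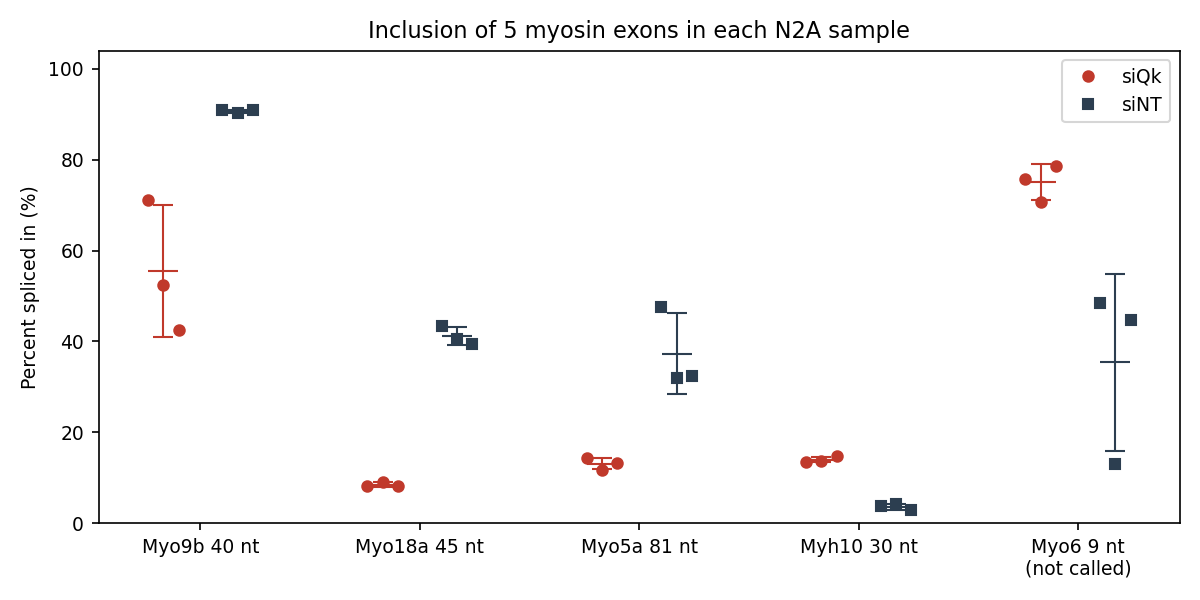
Percent spliced in (vertical axis, %) of 4 called myosin exons and the Myo6 9 nt exon in each N2A sample, siQk in red circles and siNT in dark squares, with the mean and SD of 3 samples. In the exons of Myo9b, Myo18a and Myo5a every siQk sample lies below every siNT sample, while in Myh10 the siQk samples lie at 13.51% to 14.68% and the siNT samples at 2.84% to 4.23%.

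The largest difference among the myosin exons did not pass the test. Myo6 encodes the class VI myosin, which moves towards the minus end of actin filaments. A 9 nt segment of Myo6 at chr9:80253543-80253551, not annotated as an exon in GENCODE M21, was included at 75.85%, 70.79% and 78.73% in siQk, against 48.51%, 13.00% and 44.69% in siNT. The groups did not overlap, but the event rested on 10 to 24 reads per sample and siNT replicate 2 stood far below the others. The difference was 39.7 points (limma, adjusted p = 0.310).

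Myo9b had 6 tested cassette exons, and 3 more of them had an unadjusted p under 0.05. The 114 nt exon just before the called one was included at 80.77%, 60.77% and 58.56% in siQk, against 74.75%, 86.91% and 88.01% in siNT (limma, adjusted p = 0.441). A 48 nt exon near the end of the gene was at 71.95%, 73.55% and 69.34% in siQk, against 87.13%, 82.73% and 78.49% in siNT (limma, adjusted p = 0.234). The first pair of groups overlapped and the second did not. A 14 nt microexon of Myo9b was at 3.92%, 21.37% and 8.74% in siQk, against 1.88%, 1.45% and 1.89% in siNT (limma, adjusted p = 0.296). Those values rested on few inclusion reads, with 3, 4 and 7 over the downstream junction in siQk and 5, 2 and 7 in siNT.

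Myo9a, the close relative of Myo9b with the same type of tail, also had 6 tested exons, of which none was called. Its 47 nt exon was at 65.64%, 44.21% and 40.62% in siQk, against 39.78%, 40.04% and 37.42% in siNT (limma, adjusted p = 0.719). This event had no read over the upstream inclusion junction in any sample, and its inclusion rested on the downstream junction alone. Myo19, which tethers mitochondria to actin, had 5 tested exons and Myo10, a motor of filopodia, had 4. The largest difference among these 9 exons was 3.39 points, and none was called.

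**Figure D2:**
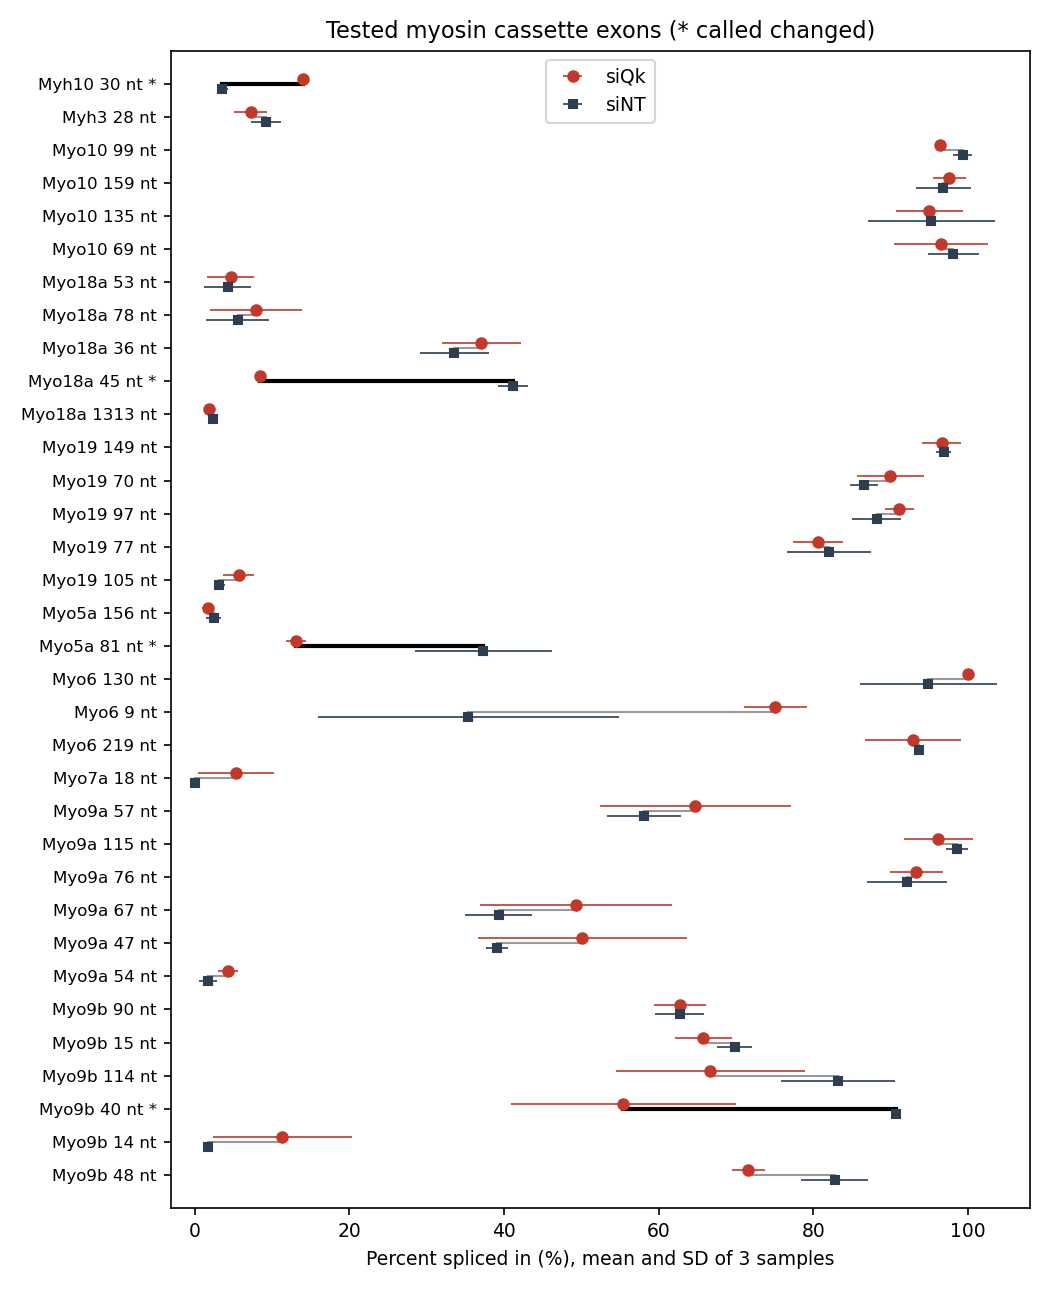
Mean percent spliced in with SD of 3 samples (horizontal axis, %) for the tested myosin cassette exons reported here, siQk in red circles and siNT in dark squares, ordered by gene and position, with called exons starred and joined by a black line. The unstarred Myo6 9 nt exon has the widest gap, 75.1% in siQk against 35.4% in siNT, with an SD of 19.5 points in siNT, and Myo9b 40 nt has the widest among the starred exons, 55.4% in siQk against 90.7% in siNT.

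Of the 27 myosin microexons in the table (3 to 27 nt), 17 had enough reads, 9 of these lay below a PSI of 2 and 4 above 98, which left 4 to test. With limma 0 of the 4 were called, against 7.32% of all 410 tested microexons, and 2 of them, in Myo6 (9 nt) and Myo9b (14 nt), had an unadjusted p under 0.05. No other tool was run. A 15 nt exon of Myo9b was at 64.99%, 62.53% and 69.79% in siQk, against 68.19%, 68.90% and 72.41% in siNT (limma, adjusted p = 0.889). An 18 nt exon of Myo7a, a motor of hair cells and photoreceptors, was at 0%, 9.58% and 6.47% in siQk, against 0% in each siNT sample, where 0, 1 and 2 inclusion reads stood behind the siQk values (limma, adjusted p = 0.599). A 9 nt exon of Myo18a was near full inclusion, at 100%, 100% and 99.74% in siQk, against 97.50%, 97.28% and 97.04% in siNT, and stayed out of the test through the PSI limit. The 9 nt exon of Myo5a, also in the tail, averaged 99.8% in siQk and 97.8% in siNT and was not tested either, since the mean of all 6 samples passed 98.

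The authors' deposited list of neural microexons held 6 myosin members, among them exons of Myh9, Myo18a, Myo5a, Myo6 and Myo9b, and classed all 6 as showing no change with Qk. In the authors' deposited table an ACTAAY motif, the kind of sequence Quaking binds (Y is C or T), was marked downstream of 2 of them, Myo6 included, and upstream of none. The authors' deposited table gave the Myo6 exon (27 nt) a PSI of 3.71% in siQk and 3.58% in siNT, while the N2A splicing table lists it at 0% on average in both groups, from a minimum of 9 reads per sample.

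Introns gave no call. Of 38 tested myosin introns none passed the rule, against 0.113% of all 17664 tested introns, while 11 of the 38 had an unadjusted p under 0.05, against 5.02% of all, and 8 did not overlap between groups, against 10.4% of all. No other tool was run for introns, and other settings of limma called 0 or 1. Myo9b held 7 of those 11, and all 7 were retained more in siQk, out of 14 tested Myo9b introns of which 12 were higher and 2 lower. The gene was singled out here after its values were seen, and introns of 1 gene are not independent. The 1962 nt intron directly after the called 40 nt exon (chr8:71340800-71342761) was retained at 34.45%, 45.62% and 32.05% in siQk, against 18.78%, 17.83% and 20.90% in siNT. The groups did not overlap, and the difference was 18.2 points (limma, adjusted p = 0.0692). Without siQk replicate 1 its adjusted p was 0.0417, and over all alternatives it ran from 0.0417 to 0.658. The 1739 nt intron before the exon was at 39.66%, 38.20% and 21.92% in siQk, against 25.27%, 13.35% and 24.42% in siNT, where the groups overlapped (limma, adjusted p = 0.825). Both introns share junctions with the cassette exon, so these 3 measurements are not separate. A 105 nt intron further on was at 83.29%, 62.95% and 59.34% in siQk, against 64.55%, 61.04% and 46.16% in siNT. The groups overlapped (limma, adjusted p = 0.969), and the difference of 11.3 points was 3.90 points without siQk replicate 1 and 5.73 points without siNT replicate 3.

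The introns that contain the called exons of Myo18a and Myo5a were retained less in siQk at the unadjusted threshold. The 3831 nt Myo18a intron was at 0.56%, 2.75% and 1.80% in siQk, against 3.26%, 6.67% and 5.61% in siNT (limma, adjusted p = 0.602). The 3938 nt Myo5a intron was at 1.43%, 0.64% and 1.83% in siQk, against 3.52%, 3.95% and 3.91% in siNT (limma, adjusted p = 0.350). Neither passed the test, and both share reads with their cassette exon.

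No alternative splice site was called. Among 20 tested myosin 3′ splice sites 0 passed with limma, against 0.101% of all. An unadjusted p under 0.05 was found for 2 of them, against 4.85% of all, and the same 2 did not overlap between groups, against 9.55% of all. These are the competing sites of 1 Myo9b event: use of the site 106 nt upstream was 18.92%, 17.65% and 31.71% in siQk, against 42.73%, 36.67% and 48.20% in siNT. The groups did not overlap, and the difference was -19.8 points (limma, adjusted p = 0.231). The 105 nt Myo9b intron described above ends directly before this upstream site, so the measurements are not separate. In Myo7a the pair with the next largest difference averaged 14.7% in siQk and 22.7% in siNT for the longer form, with overlapping samples. Among 6 tested 5′ splice sites, in Myo7a, Myo9b and Myo19, 0 passed with limma, against 0.107% of all. None had an unadjusted p under 0.05, against 5.13% of all, and 0 did not overlap between groups, against 10.7% of all. The largest difference was 3.65 points, for a Myo7a site at 99.4% in siQk and 95.7% in siNT. A Myo9b site averaged 26.1% in siQk and 22.7% in siNT, a difference that was 8.62 points without siQk replicate 1 and -2.74 points without siQk replicate 2. Other tools were not run for either class.

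**Figure D3:**
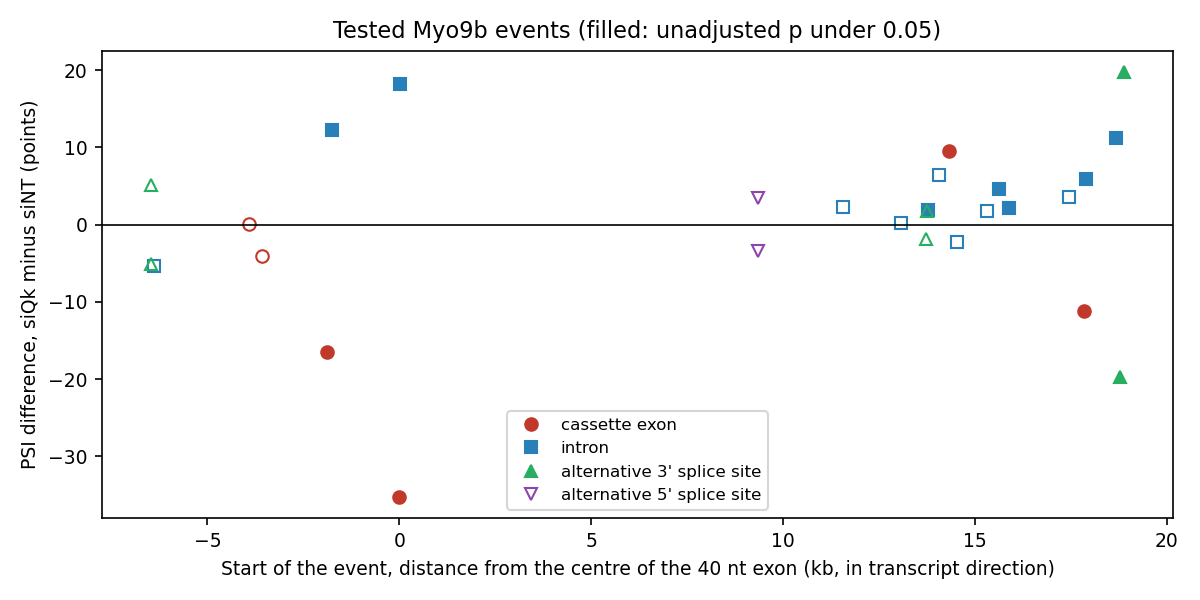
Difference of mean percent spliced in, siQk minus siNT (vertical axis, points), for every tested Myo9b event against the distance of its start from the centre of the 40 nt exon (horizontal axis, kb), with shape and colour giving the event class and filled symbols an unadjusted p under 0.05. The 40 nt exon lies lowest at -35.2 points, and the 7 filled introns all lie above 0.

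Reads over exon events were summed per gene as a stand-in for its level. The sum grows with the number of events of a gene, so myosin genes are compared with each other only by CPM per exon event, and summed CPM serve to compare groups within a gene or list. On that scale the means were 42.4 in siQk and 37.9 in siNT for Myh9, the highest of the 23 genes tested, 13.3 in siQk and 13.8 in siNT for Myh10, and 9.05 in siQk and 8.09 in siNT for Myo5a. They were 2.38 in siQk and 4.05 in siNT for Myo9b. Myh14, the third nonmuscle heavy chain, had 0.0357 in siQk and 0.0134 in siNT. Of the 39 genes 23 had a mean of at least 20 reads and were tested. Myh1, Myh2, Myh4, Myh6 and Myh8, heavy chains of skeletal muscle and heart, had 0 reads in all 6 samples.

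Of the 23 tested genes 2 rose and 1 fell at an adjusted p under 0.05 (limma trend on log2(CPM + 0.5)), against 4.21% of all 10851 tested genes, 2.76% upward and 1.45% downward. An unadjusted p under 0.05 was found for 8 of the 23, against 20.4% of all, and 15 were higher and 8 lower. The median log2 fold change was 0.14 for the myosins and 0.02 for all genes. Groups did not overlap in 6 of the 23, against 26% of all.

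Myo18b, a class XVIII myosin needed to build muscle sarcomeres, had 16.1, 16.2 and 14.4 CPM in siQk, against 6.85, 6.34 and 8.42 CPM in siNT. All siQk samples were above all siNT samples, by a log2 fold change of 1.07 ± 0.14 (SE; limma, adjusted p = 0.00848). Over all alternatives the adjusted p of Myo18b ran from 0.00478 to 0.0496. Its level was low, at 0.346 CPM per exon event in siQk and 0.160 in siNT, and 2 of its 45 exon events had enough reads. Muscle markers differed in both directions. The summed level of 8 skeletal muscle markers was 3.33 to 4.03 CPM in siQk and 2.31 to 2.75 CPM in siNT, with no read for Myod1, Myf5 and Ttn, and Des (desmin) rose to a mean of 2.85 CPM in siQk, against 1.47 CPM in siNT (limma, adjusted p = 0.0319). Acta1 (skeletal actin), too low to test, had 0.267, 0.0376 and 0.224 CPM in siQk, against 0.700, 0.607 and 0.293 CPM in siNT, lower without overlap. The summed level of 4 heart markers was 29.4 to 42.7 CPM in siQk and 27.7 to 29.4 CPM in siNT. Most of that sum was Ryr2, with means of 29.2 CPM in siQk and 26.7 CPM in siNT (limma, adjusted p = 0.791). Tnnt2 (cardiac troponin T) rose to 4.01 CPM in siQk, against 1.53 CPM in siNT (limma, adjusted p = 0.0133). Of the 2 too low to test, Myl2 had a higher mean in siQk and Actc1 a lower one, both with overlapping samples. The part of either list in the Myo18b result was not tested. The neuroblast markers, of which 10 of 13 were in the table and all 10 reached 1 CPM, summed to 1649 to 1763 CPM in siQk and 1468 to 1503 CPM in siNT. Glia markers summed to 1.54 to 3.39 CPM in siQk and 2.14 to 2.56 CPM in siNT, and blood markers to 0.113 to 0.207 CPM in siQk and 0.127 to 0.300 CPM in siNT. Markers of smooth muscle or fibroblasts summed to 5.11 to 5.92 CPM in siQk and 8.88 to 12.6 CPM in siNT. Most of that sum was Pdgfrb, which fell to a mean of 3.35 CPM in siQk, against 8.54 CPM in siNT (limma, adjusted p = 0.0187). Acta2 averaged 1.11 CPM in siQk and 0.936 CPM in siNT. Col1a1 averaged 0.904 CPM in siQk and 0.695 CPM in siNT, and neither passed. Cnn1, Col1a2 and Tagln, too low to test, had lower means in siQk, but their samples overlapped and had 0 to 26 reads each.

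Myo9b was lower, with 123, 112 and 101 CPM in siQk, against 209, 172 and 190 CPM in siNT. No siQk sample reached the lowest siNT sample, with a change of -0.76 ± 0.10 on the log2 scale (SE; limma, adjusted p = 0.00971). Without siQk replicate 3 its adjusted p was 0.0647, and over all alternatives it ran from 0.00259 to 0.0790. Without that sample only 1 myosin gene was called in all.

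Myh14 and Myo18a had large differences that did not pass. Myh14 had 1.75, 1.69 and 1.27 CPM in siQk, against 0.267, 0.713 and 0.790 CPM in siNT, with 16 to 102 reads per sample (log2 fold change 0.95, limma, adjusted p = 0.0543). Its adjusted p was 0.0472 with a pseudocount of 2 CPM, where the log2 fold change was 0.47, and 0.0337 with the replicate number as a block, and over all alternatives it ran from 0.0337 to 0.168. Myo18a had 141, 210 and 197 CPM in siQk, against 92.9, 126 and 152 CPM in siNT, which overlapped (log2 fold change 0.57, limma, adjusted p = 0.143). Without siQk replicate 1 the adjusted p of Myo18a was 0.0366, and over all alternatives it ran from 0.00645 to 0.386. Of the other genes with a called exon, Myh10 averaged 558 CPM in siQk and 578 CPM in siNT, and Myo5a averaged 362 CPM in siQk and 324 CPM in siNT, and neither passed.

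**Figure D4:**
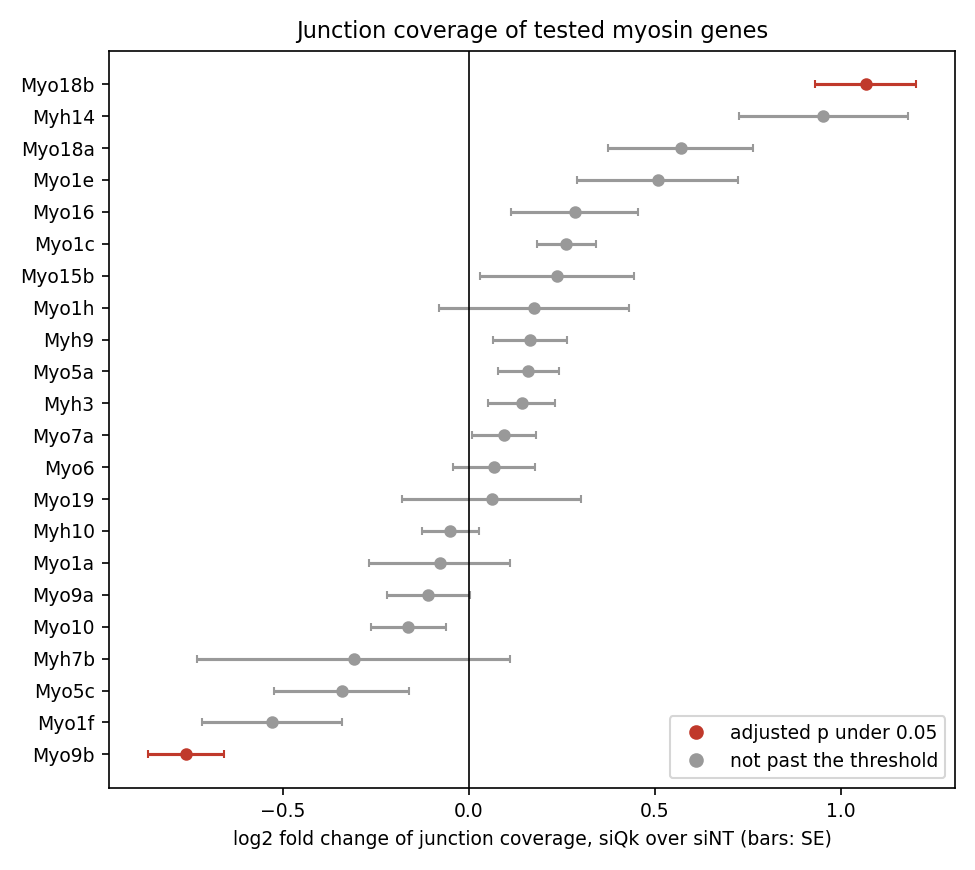
Log2 fold change of junction coverage, siQk over siNT, with its SE (horizontal axis) for the tested myosin genes reported here, red where the adjusted p was under 0.05. Myo18b at 1.07 is the red point above 0, and Myo9b at -0.76 is the red point below it.

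Myh3, the heavy chain of embryonic skeletal muscle, was among the most covered myosin genes of these neuroblastoma cells, with 16.56 CPM per exon event in siQk and 15.02 in siNT. Its reads were uneven along the gene. The 3 exon events before a 28 nt exon (chr11:67083399-67083426) had 0 to 4 reads per sample, while the 29 events after it had 256 to 2575. At the 28 nt exon the upstream inclusion junction had 0, 0 and 0 reads in siQk and 1, 0 and 1 in siNT, beside 54, 38 and 171 reads over the downstream junction in siQk and 88, 60 and 130 in siNT. Skipping was supported by 443, 594 and 1762 reads in siQk and 877, 388 and 1163 in siNT, although the exon events before it had almost none. Its PSI averaged 7.25% ± 2.09 in siQk and 9.27% ± 1.91 in siNT (SD, n = 3 each), with nearly all inclusion reads on the downstream junction. The 391 nt intron directly before it was scored as retained at 100% in each siQk sample, against 78.68%, 100% and 76.92% in siNT (limma, adjusted p = 0.330). Without siNT replicate 2 its adjusted p was 0.00476, and over all alternatives it ran from 0.00476 to 1.00. The skeletal muscle heavy chains are near-identical in places, so how reads were assigned among them is uncertain. The cause of the uneven reads was not tested.

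The 28 nt exon has counterparts in the nonmuscle heavy chains, shown because these similar exons had unlike listed PSI. The Myh3 PSI rests almost only on the downstream junction, so a difference in splicing from the others cannot be read from it. The 28 nt exon lies just before the exon that begins with the ATP-binding loop of the motor.
Myh10 28 nt exon, chr11:68734388-68734415, plus strand: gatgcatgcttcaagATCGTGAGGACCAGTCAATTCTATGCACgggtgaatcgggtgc
Myh14 28 nt exon, chr7:44658214-44658241, minus strand: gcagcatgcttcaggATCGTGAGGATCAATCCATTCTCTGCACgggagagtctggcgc
Myh9 28 nt exon, chr15:77797001-77797028, minus strand: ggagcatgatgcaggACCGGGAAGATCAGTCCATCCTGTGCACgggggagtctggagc
Myh3 28 nt exon, chr11:67083399-67083426, plus strand: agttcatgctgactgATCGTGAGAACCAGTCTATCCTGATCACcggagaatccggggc

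The Myh10 exon matched that of Myh14 at 24 of 28 bases, that of Myh3 at 22 and that of Myh9 at 21. In N2A cells the Myh10 exon averaged 99.6% in siQk and 100% in siNT. The Myh9 exon averaged 99.9% in siQk and 100% in siNT. The exon of Myh14 had 0 reads in at least 1 sample and was not measured there. Its length is not a multiple of 3, and skipping shortens the coding length of Myh10-201 to 627 nt, against 6024 nt with the exon.

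In the neurons the authors' deposited table gave 14 myosin segments in 8 genes, as PSI per condition with replicates combined, so no spread between samples and no depth is known. The rule used here asked for conditions 10 or more points apart with a probability of 0.9 or higher in the authors' deposited table. This held for 2 of the 14 myosin segments, against 9.4% of all 2469 segments, 2.23% upward and 7.17% downward in CHX. Those 2 are shown, with the Myo6 exon that had the next largest difference. The Myo18a flanks are those of Myo18a-224, where the upstream flank is the end of a 21 nt exon. In the authors' deposited table that 21 nt exon was at 0.32% in CHX and 0.40% in untreated neurons, so the upstream junction shown was rare there.
Myh14 24 nt exon, chr7:44657417-44657440, minus strand: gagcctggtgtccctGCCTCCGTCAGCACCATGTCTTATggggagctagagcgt
Myo18a 9 nt exon, chr11:77822666-77822674, plus strand: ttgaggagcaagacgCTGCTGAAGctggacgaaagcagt
Myo6 27 nt exon, chr9:80303273-80303299, plus strand: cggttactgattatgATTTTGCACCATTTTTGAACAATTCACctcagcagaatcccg

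The Myh14 24 nt exon is exon 6 of 42 of Myh14-201 and, like the 30 nt exon of Myh10, is the loop 1 insert of its heavy chain. The authors' deposited table put its PSI at 72.3% in CHX and 27.7% in untreated neurons, with a probability of 0.912. In the authors' deposited table the Myo18a 9 nt exon was at 17.3% in CHX and 69.9% in untreated neurons, with a probability of 0.909. The same exon averaged 99.9% in siQk and 97.3% in siNT in the N2A table, which comes from another cell type and was made separately. A 3 nt segment directly before this exon was at 98.4% in CHX and 99.8% in untreated neurons in the authors' deposited table, with a probability of 0.89. The Myo6 27 nt exon, in the stretch that encodes the cargo-binding tail, was at 13.9% in CHX and 42.6% in untreated neurons in the authors' deposited table, with a probability of 0.754 that missed the rule. All 3 exons have a length divisible by 3 and hold no stop codon in the annotated frame.

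The other neuron segments differed by less or with a lower probability. The 28 nt exon of Myh14 was at 81.1% in CHX and 64.1% in untreated neurons in the authors' deposited table (probability 0.83), and skipping it shortens the coding length of Myh14-201 to 687 nt, against 6003 nt with the exon. In the authors' deposited table the Myh9 counterpart was at 96.3% in CHX and 97.6% in untreated neurons, and that of Myh10 was at 99.9% in both. A 14 nt exon of Myo10, whose skipping shortens the coding length of Myo10-202 to 729 nt from an annotated 6189 nt, was at 85.7% in CHX and 89.9% in untreated neurons in the authors' deposited table. The Myo5a 9 nt exon was at 94.9% in CHX and 93.9% in untreated neurons in the authors' deposited table. Another 27 nt segment of Myo6 had a probability of 0.917 but only 0.391% in CHX and 3.67% in untreated neurons in the authors' deposited table.

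**Figure D5:**
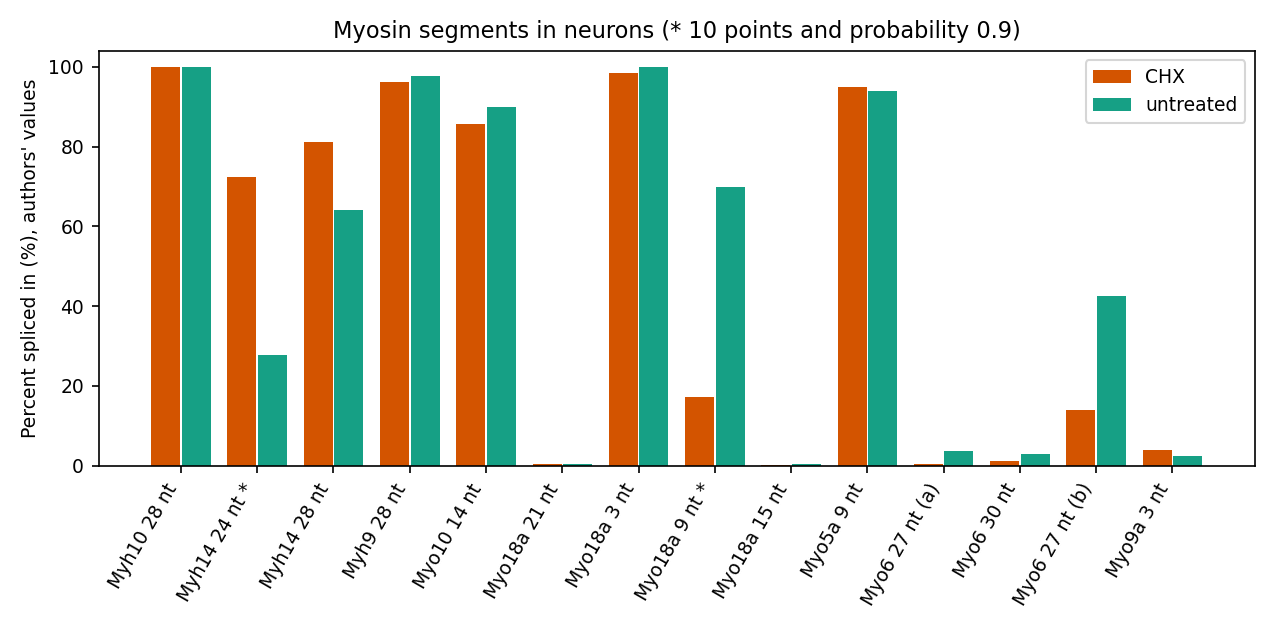
Percent spliced in from the authors' deposited table (vertical axis, %) for the 14 myosin segments in neurons, CHX in orange left of untreated in green, without error bars because replicates were combined; stars mark the 2 segments past the rule. Myh14 24 nt is at 72.3% in CHX and 27.7% in untreated neurons, and Myo18a 9 nt at 17.3% in CHX and 69.9% in untreated neurons.

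Genes that work with myosins were read from a list. In 57 genes for light chains, regulatory kinases and phosphatases, cargo adaptors, actin filaments with tropomyosin, and chaperones, 65 cassette exons were tested and 2 were called, both upward, against 1.18% of all tested exons. The kinases and phosphatases gave 1 of 30 exons and the actin and tropomyosin list 1 of 16, with 0 of 14 for the cargo adaptors and 0 of 5 for the light chains. A 39 nt exon of Cdc42bpa, a kinase that raises myosin II activity, was at 25.27%, 28.93% and 17.62% in siQk, against 5.39%, 5.99% and 3.79% in siNT (limma, adjusted p = 0.0118). A 76 nt exon of Tpm1, a tropomyosin that lies along the actin filament, was at 68.88%, 56.26% and 56.66% in siQk, against 46.31%, 34.83% and 37.78% in siNT (limma, adjusted p = 0.0427). The groups did not overlap in either. The neighbouring 76 nt exon of Tpm1 averaged 43.45% in siQk and 59.96% in siNT (limma, adjusted p = 0.138). The count of partner exons was 1 without siQk replicate 1, siQk replicate 3 or siNT replicate 2, and 0 without siQk replicate 2 or siNT replicate 3.

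In junction coverage 4 of the 48 tested partner genes rose, against 2.76% of all tested genes, and 0 fell. The light chain list gave 2 of 8, the actin and tropomyosin list 2 of 10, and the other lists none of 30. Cald1, an actin-binding inhibitor of myosin, had 211, 253 and 236 CPM in siQk, against 134, 132 and 145 CPM in siNT (log2 fold change 0.76, limma, adjusted p = 0.00554). Myl12a, a regulatory light chain of nonmuscle myosin II, had 178, 224 and 247 CPM in siQk, against 141, 133 and 145 CPM in siNT (log2 fold change 0.62, limma, adjusted p = 0.0290). Tpm2 and Calm2, for a tropomyosin and for calmodulin, were higher by 0.55 and 0.42 on the log2 scale (limma, adjusted p = 0.0293 and 0.0344). In each of the 4 genes no siNT sample reached the lowest siQk sample. The count ran from 1 to 8 when single samples were left out: 8 without siQk replicate 1, 2 without siNT replicate 1 and 1 without any of the other 4. The median log2 fold change of the 48 genes was 0.10, against 0.02 for all genes.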

How the data were processed

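For N2A cells the authors deposited a percent spliced in for each event and sample on mm10, per the file headers and the submitters' processing notes, in the layout of a vast-tools table. Beside each percent the authors deposited another kind of value, a text cell with inclusion and exclusion reads not scaled to depth. For neurons the authors deposited PSI as fractions, with replicates combined, and a score each for probability, difference and entropy. The first neuron PSI was taken as untreated from the order of names, and fractions were turned into percent. Aligner and counter are not given in the sources used here.

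Log2((inclusion + 0.5)/(exclusion + 0.5)) was compared with limma 3.58.1 in R 4.3.3 (robust, trend on sampling variance, two-sided), with all events of a class in 1 fit. Coverage sums were tested as log2(CPM + 0.5), which understates changes of low genes; a read can serve several events. The scripts were tested on simulated data. Replicates were 1.49 to 2.93 times as variable as read sampling alone gives, so each counts once, and counting intervals were not used because PCR copies cannot be told apart. Annotation and sequences are GENCODE M21. Members, lists and tests were chosen with earlier results of these data known. Results on 1 gene are not reported here. Named otherwise were all called events and genes, the 8 exons, 4 introns and 4 of each splice site class with the largest differences, all tested microexons, the 4 genes with the largest coverage changes, neuron segments past the rule, and up to 6 called partner exons and genes each. Further steps and plots used Python 3.11.15, pandas 2.3.3, the data.table package (1.17.8) and matplotlib 3.10.9.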

Additional observations from a re-analysis of the deposited data

How the results depend on the processing

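Of the 5 called myosin exons, leaving out 1 replicate kept 4 or 5, and testing PSI in percent called 3, Myo18a and Myh10 among them. A 15-point size limit drops Myh10 by its construction. The count of called introns was 1 without siQk replicate 1, without siNT replicate 2, with sampling variance weights and with a pseudocount of 1, and it ran from 0 to 1 over the left-out replicates. The called intron was not the same throughout. It was the 1962 nt intron of Myo9b in 2 of these settings, among them without siQk replicate 1. In the other 2, among them without siNT replicate 2, it was the 391 nt intron of Myh3, whose reads were uneven along the gene. Alternative splice sites stayed at 0 in all 14 alternatives, and the competing Myo9b 5′ splice sites were at 8.62 and -8.62 points without siQk replicate 1 and turned to -2.74 and 2.74 points without siQk replicate 2. Partner exons numbered 0 with PSI in percent, 5 with adjusted p alone and 0 to 2 over the left-out replicates. Called myosin genes in coverage ran from 1 to 4 over the left-out replicates. They numbered 0 with each gene's event of median reads, where fewer reads enter and 29 of all 9423 tested genes were called. Over all genes the calls ran from 43 to 863 as single replicates were left out, and 457 were made with all. Called partner genes ran from 1 to 8 and numbered 0 with the same choice. In the neurons 0 segments passed at a probability of 0.95. The causes were not tested. With the replicate number as a block, 7 myosin genes (6 higher, 1 lower) and 9 partner genes were called in coverage. Over all genes that block called 1205 of 10851, and it called 5 myosin exons in splicing. To compare replicate numbers, each group's mean was first subtracted for every exon or gene. What was left correlated between same-numbered siQk and siNT samples at 0.139, 0.0193 and 0.116 for exons and 0.479, -0.136 and 0.480 for coverage. Between unlike-numbered samples the correlation of what was left ran from -0.147 to 0.0451 for exons and from -0.641 to 0.493 for coverage. Within a group the remainders cancel out, so values of both signs arise in part by construction. In both measures the same-numbered value was the highest for siQk replicates 1 and 3 but not for replicate 2. The labels do not say whether equal numbers were prepared together, so they were not taken as pairs, and a shared batch was not tested. The planned motif search in introns was not run. Read depth limits Myo6, Myh14 and the 23 genes without an event with enough reads, and the neuron depth is unknown.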
